A study of Homo sapiens with 15 samples.

Results

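The 7 genes described here are MCM2, MCM5, MCM6, CDC6, GINS4, TYMS and UNG, taken by name from the platform annotation of the array. Each gene was represented by its feature of highest mean over the 15 arrays, and all 7 were found among the 14812 named genes of the deposited table. RNA came from MV4-11, an established cell line of human acute myeloid leukemia that carries a KMT2A-AFF1 fusion. Cells received OTX015 at 300 nM, DW71177 at 300 nM, RVX208 at 5 uM or DW71374 at 300 nM, and control cells received the vehicle DMSO. Every group was taken at 24 h, held 3 arrays and shared the same line, so the results speak for this line only. The compounds are labelled as inhibitors of BET proteins, readers of acetylated lysine in chromatin. OTX015 (birabresib) binds both bromodomains of these proteins, RVX208 (apabetalone) prefers the second bromodomain, and the DW compounds are known here by code name. The labels give wells treated in triplicate without saying that they were separate cultures, so every p-value below reflects array-to-array spread alone, and that spread may be technical.

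Before a cell copies its DNA, the origin recognition complex, CDC6 and CDT1 load the ring-shaped MCM2-7 helicase onto origins, a step called licensing. CDC45 and the GINS complex, of which GINS4 is a subunit, then join the ring and turn it into the active CMG helicase of the fork. TYMS, thymidylate synthase, methylates dUMP to dTMP and is the target of fluorouracil. UNG, uracil-DNA glycosylase, removes the uracil that enters DNA when dUMP is not converted or when cytosine is deaminated. Genes of this kind are textbook targets of the E2F transcription factors and peak at the passage from G1 to S phase.

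RefSeq start windows reach from 250 bases before a gene's start to 50 bases after it. They were used for 5 of the 7 genes, and UNG had 2 of them. No window of MCM5 or GINS4 was searched, so whether these genes hold the motif was not tested. The windows are shown because the members moved together, and the capitals mark the letters searched for as an E2F motif. The motif had 4 spellings, read on either strand. TTCGCGC was found in MCM2 and MCM6. The spelling TTGGCGC was found in MCM6, CDC6 and both UNG windows. In TYMS the match was to TTCCCGC, and the second UNG window also matched TTGCCGC. Matches on opposite strands could overlap. All sequences run 5′ to 3′ on the gene's strand and come from RefSeq, build GRCh38.p14. The first 2 lines give the 250 bases before the start of MCM6 (chr2:135876444-135876693, minus strand) and TYMS (chr18:657403-657652, plus strand).
MCM6: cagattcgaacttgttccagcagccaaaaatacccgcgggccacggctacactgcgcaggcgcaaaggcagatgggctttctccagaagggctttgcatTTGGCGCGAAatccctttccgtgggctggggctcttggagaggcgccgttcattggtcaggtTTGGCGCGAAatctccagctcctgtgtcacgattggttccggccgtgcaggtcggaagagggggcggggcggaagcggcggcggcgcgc
TYMS: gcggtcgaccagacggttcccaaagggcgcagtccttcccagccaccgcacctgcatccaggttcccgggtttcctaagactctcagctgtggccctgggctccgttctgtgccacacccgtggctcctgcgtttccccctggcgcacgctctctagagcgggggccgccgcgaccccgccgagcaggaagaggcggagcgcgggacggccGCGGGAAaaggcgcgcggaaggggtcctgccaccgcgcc
The next lines give 30 bases around the motif in MCM2 (chr3:127598402-127598431, plus strand), CDC6 (chr17:40287875-40287904, plus strand), the first UNG window (chr12:109097577-109097606, plus strand) and, with 2 separate matches, the second UNG window (chr12:109098012-109098041 and chr12:109098098-109098127, plus strand).
MCM2: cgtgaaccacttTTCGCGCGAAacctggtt
CDC6: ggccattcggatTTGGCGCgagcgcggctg
UNG first start: tgcgcgggccgcTTGGCGCCAAttgctgac
UNG second start: tcggggcccatgGCGCCAAtccgcgcgccg
UNG second start, nearer match: gagggaggttttTTGCCGCgaaaagaccac

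All 6 windows used, which belong to 5 genes, held the motif, against 13% of the 35116 RefSeq windows of the same length. Members and motif were chosen with earlier results of these data known, and MCM5 and GINS4 were not searched. This share is therefore a description only, and it does not cover all 7 members. By gene, 20.6% of the 10736 array genes with a window held it. Among related genes, members left out, it was in 3 of 3 origin licensing, 4 of 5 replication fork, 7 of 11 E2F and cell cycle entry and 6 of 10 helicase activation genes. It was also in 6 of 11 base excision repair, 5 of 10 nucleotide supply and 4 of 15 G2 and mitosis genes, and no difference between these shares was tested. MCM6 carried it as 2 copies of the same 10 letters, from base -151 to -142 and from -89 to -80, where opposite-strand matches overlap. In MCM2 the overlapping matches lay just past the start, at bases 4 to 13, and in CDC6 at bases 9 to 15. TYMS held the motif on the opposite strand, at bases -39 to -33. An E-box, CACGTG, the letters read by MYC and related factors, was in 2 of the 6 windows, those of MCM2 and the second UNG start, and in 7.26% of all windows. CCAAT was in 4 of 6 and GGGCGG in 4 of 6, against 34.6% and 45% of all windows. The CHR element of mitotic genes, searched as TTTGAA and also as TTCGAA, was in 2 of 6 and in 16.4% of all. A match describes these letters only, and binding was not measured.

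The deposited values were taken as log2 signals, with nearly equal medians on all arrays, so a difference is read against all other signals of the same array. Array medians over the named genes lay between 4.70 and 4.76, and across genes the arrays of a group had correlations of 0.992 to 0.995. Averaged over the 15 arrays, each member was brighter than 78.3% to 98.2% of the named genes, and 0 of the 7 held the same deposited value in more than 1 array. Of 12 myeloid leukemia markers 7 were measured, and they stood above 41.9% (MPO) to 99.6% (LYZ) of genes, with FLT3 at 99.0% and CD4 at 80.7%. Of markers of other cells, the lymphoid PAX5 and CD8A stood at 43.8% and 57.7%, and 3 erythroid and megakaryocyte genes at 46.5% (GP9) to 65.7% (PF4). The 5 epithelial and stromal genes ran from 2.55% (DCN) and 13.1% (EPCAM) to 58.5% (KRT8) and 90.7% (KRT18). These ranges overlap, so the levels of the measured markers alone did not separate the cell types. Of the 7 myeloid markers 4 fell and 1 rose with OTX015, where CSF1R differed by -1.55, LYZ by -1.02 and MEIS1 by 0.58 on the log2 scale. In the same comparison 0 of 5 epithelial and stromal, 0 of 2 lymphoid and 1 of 3 erythroid and megakaryocyte markers passed the test, and the part of these shifts in the results below was not tested. Array precision is limited by the number of arrays.

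OTX015 lowered all 7 genes. In each of them every OTX015 array lay below every DMSO array, and the signal left ranged from 42.4% of the DMSO level for CDC6 to 75.2% for GINS4. Differences were tested with limma in a single fit of the 5 groups, adjusted over 14812 genes and called at an adjusted p under 0.05. By that rule 14.5% of all genes fell with OTX015, and 19.5% had all 3 OTX015 arrays below the DMSO arrays. The median of the members was -0.93 on the log2 scale, beside -0.004 for all genes. In bulk RNA of this kind, fewer cells in S phase and less of these transcripts per cell cannot be told apart.

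**Figure D1:**
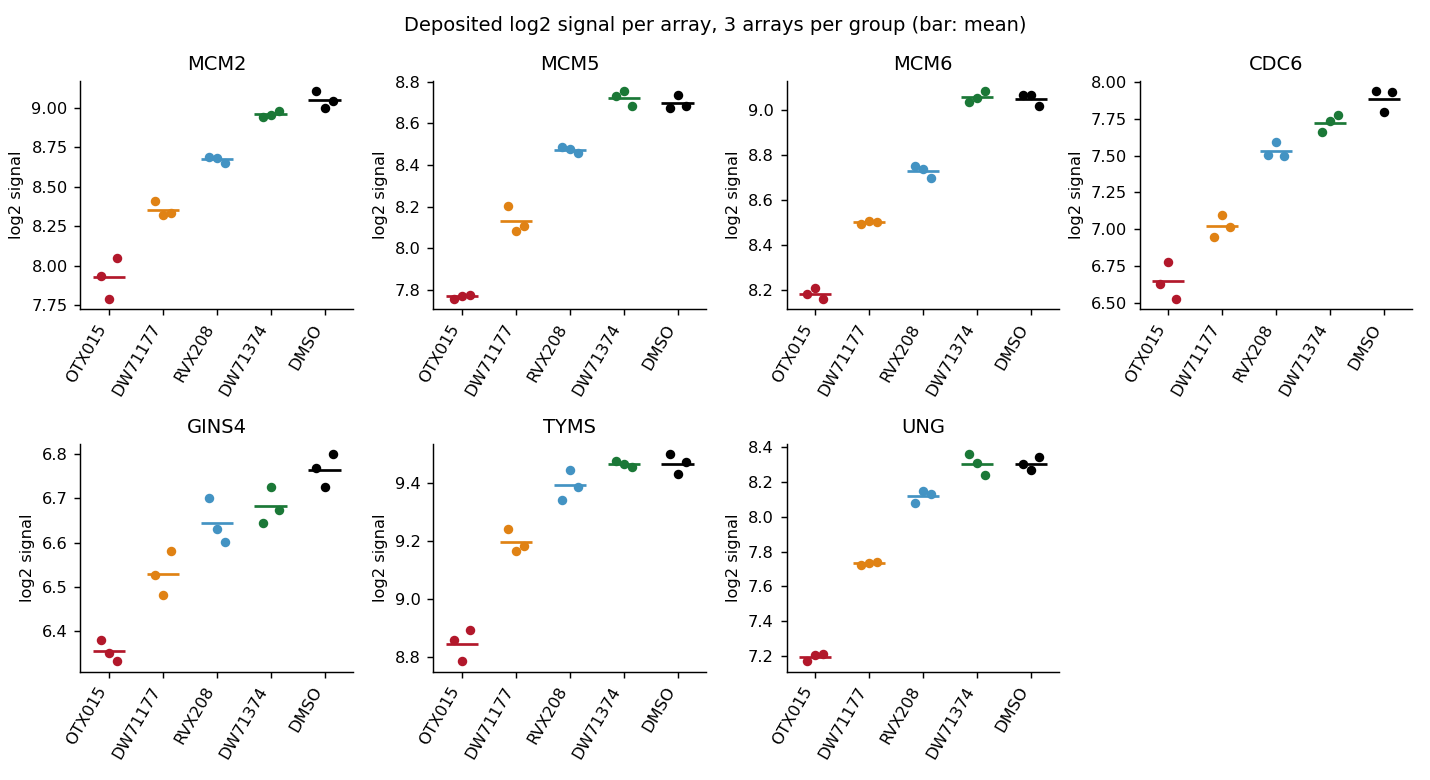
Deposited log2 signal (y axis, own range per gene) of the 7 genes on each of the 15 arrays, by compound (x axis), where points are arrays and bars group means. In every gene the 3 OTX015 arrays are the lowest, the DW71177 arrays follow, and the RVX208, DW71374 and DMSO arrays lie above both.

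Among the helicase genes, MCM2 read 7.94, 7.79 and 8.05 with OTX015, against 9.10, 9.0 and 9.04 in DMSO, a log2 difference of -1.12 ± 0.065 (SE, n = 3 and 3, limma adjusted p = 3.3e-08). MCM5 read 7.76, 7.77 and 7.78 with OTX015, against 8.67, 8.74 and 8.68 in DMSO, a difference of -0.93 ± 0.051 (limma adjusted p = 2.5e-08). MCM6 read 8.18, 8.21 and 8.16 with OTX015, against 9.07, 9.07 and 9.02 in DMSO, a difference of -0.87 ± 0.047 (limma adjusted p = 2.1e-08). The replicate spread was far smaller than these gaps, and MCM2 was the most variable of them with OTX015 (SD 0.13). Their 95% intervals, -1.26 to -0.98 for MCM2 and -0.97 to -0.77 for MCM6, did not overlap.

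CDC6, which helps load the ring and is removed once replication starts, read 6.63, 6.78 and 6.53 with OTX015, against 7.94, 7.79 and 7.93 in DMSO. Its difference of -1.24 ± 0.073 (limma adjusted p = 3.7e-08) was the 52nd lowest of the 14812 genes. GINS4 read 6.38, 6.35 and 6.33 with OTX015, against 6.77, 6.73 and 6.80 in DMSO, and fell least of the members, by 0.41 ± 0.053 on the log2 scale (limma adjusted p = 4.6e-05). A second, dimmer GINS4 feature, with a mean of 3.16 over the 15 arrays against 6.60 for the one used, differed by -0.11 ± 0.21 and did not pass the test. With the mean of both features the GINS4 call was lost, at -0.26 (limma adjusted p = 0.11).

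TYMS read 8.86, 8.79 and 8.89 with OTX015, against 9.50, 9.43 and 9.47 in DMSO, a difference of -0.62 ± 0.053 (limma adjusted p = 1e-06). UNG read 7.17, 7.21 and 7.21 with OTX015, against 8.30, 8.27 and 8.34 in DMSO, a difference of -1.11 ± 0.051 (limma adjusted p = 4.6e-09). UNG thus kept 46.5% of its DMSO signal and TYMS 65%, and their intervals, -1.22 to -1.0 and -0.73 to -0.51, were apart.

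DW71177 also lowered all 7 genes, by less. Its arrays lay below all DMSO arrays for every member, and the signal left ran from 55.0% for CDC6 to 85.0% for GINS4. Of all genes 9.88% fell with DW71177, and 16.2% had all its arrays below the DMSO arrays. The median of the members was -0.57, beside -0.006 for all genes. MCM2 read 8.41, 8.32 and 8.33 with DW71177, -0.69 ± 0.065 from the DMSO arrays given above (limma adjusted p = 4.8e-06). MCM5 read 8.20, 8.08 and 8.11, a difference of -0.57 ± 0.051 (limma adjusted p = 4e-06). MCM6 read 8.5, 8.51 and 8.5, a difference of -0.55 ± 0.047 (limma adjusted p = 2.6e-06). The 3 helicase genes thus moved by like amounts, with overlapping intervals.

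CDC6 read 6.95, 7.10 and 7.02 with DW71177 and differed from DMSO by -0.86 ± 0.073 (limma adjusted p = 2.2e-06), again the largest fall of the members. UNG read 7.73, 7.74 and 7.74, a difference of -0.57 ± 0.051 (limma adjusted p = 4e-06). TYMS read 9.24, 9.17 and 9.18, a difference of -0.27 ± 0.053 (limma adjusted p = 0.0021), so that 82.9% of its signal was left. GINS4 read 6.53, 6.48 and 6.58, a difference of -0.24 ± 0.053 (limma adjusted p = 0.0055). Its call was lost with the mean of both features, at -0.07 (limma adjusted p = 0.74).

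RVX208, at its higher dose of 5 uM, lowered 5 of the 7 genes, where 3.11% of all genes fell. The 5 were MCM2, MCM5, MCM6, CDC6 and UNG, with 77.3% to 87.9% of the DMSO signal left, and 6 of the 7 had all RVX208 arrays below the DMSO arrays, as had 13.3% of all genes. The median of the members was -0.22, beside -0.01 for all genes. MCM2 read 8.69, 8.68 and 8.65 with RVX208, a difference of -0.37 ± 0.065 (limma adjusted p = 0.0034). MCM6 read 8.75, 8.74 and 8.70, a difference of -0.32 ± 0.047 (limma adjusted p = 0.001), and CDC6 read 7.50, 7.59 and 7.50, a difference of -0.35 ± 0.073 (limma adjusted p = 0.01). These are the licensing genes whose calls held under every alternative tried.

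MCM5 read 8.49, 8.48 and 8.46 with RVX208, a difference of -0.22 ± 0.051 (limma adjusted p = 0.019), and its call was lost when any 1 of the 3 RVX208 arrays, or DMSO replicate 2 or 3, was left out, at limma adjusted p = 0.053 to 0.074. UNG read 8.08, 8.15 and 8.13, a difference of -0.19 ± 0.051 (limma adjusted p = 0.048). Its call, close to the threshold, was lost when any 1 of the 6 arrays was left out, at limma adjusted p = 0.077 to 0.16. With all arrays kept, the UNG call was also lost after quantile normalization and after subtracting array medians (limma adjusted p = 0.068 and 0.093). GINS4 read 6.70, 6.63 and 6.60 and differed by -0.12 ± 0.053 (limma adjusted p = 0.22). TYMS read 9.34, 9.44 and 9.39, overlapped the DMSO arrays and differed by -0.08 ± 0.053 (95% interval -0.19 to 0.04, limma adjusted p = 0.49).

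DW71374 at 300 nM gave 0 calls among the members and 0 among all genes in limma (0%), with 686 genes at an unadjusted p under 0.05. MCM2 read 8.94, 8.95 and 8.98, MCM5 read 8.73, 8.75 and 8.68 and MCM6 read 9.04, 9.06 and 9.08. Their differences from DMSO were -0.09 ± 0.065, 0.02 ± 0.051 and 0.01 ± 0.047, each with a limma adjusted p = 0.99. UNG read 8.36, 8.31 and 8.24, and TYMS read 9.47, 9.47 and 9.46. The 95% intervals were -0.11 to 0.11 for UNG and -0.12 to 0.11 for TYMS. Differences from DMSO of the size seen with OTX015 or DW71177 lay outside these intervals. For CDC6, MCM2 and GINS4 all 3 DW71374 arrays lay below the DMSO arrays, 3 of 7 members, where 5.98% of all genes did so. In GINS4 this was nearly a tie, with the highest DW71374 array at 6.7262 and the lowest DMSO array at 6.7267. CDC6 read 7.66, 7.73 and 7.78, a difference of -0.16 (95% interval -0.32 to -0.01, unadjusted p = 0.044, limma adjusted p = 0.99), and GINS4 read 6.65, 6.73 and 6.67, a difference of -0.08 ± 0.053.

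**Figure D2:**
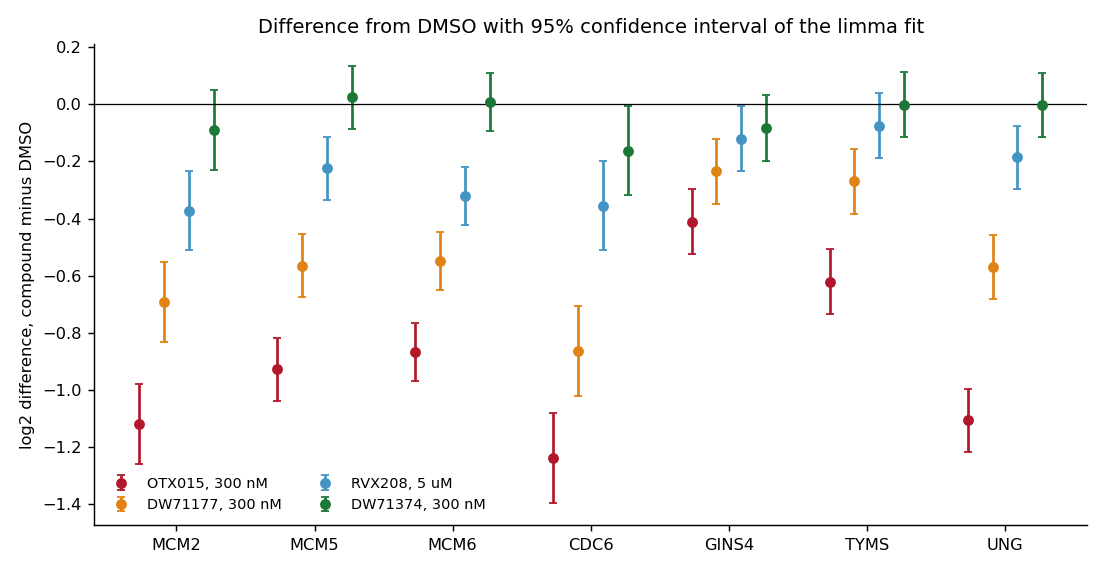
Log2 difference from DMSO (y axis) of each gene (x axis) for the 4 compounds, with points for the fitted difference and bars for its 95% confidence interval, n = 3 arrays per group. OTX015 differences run from -1.24 for CDC6 to -0.41 for GINS4, DW71177 from -0.86 to -0.24, RVX208 from -0.37 for MCM2 to -0.08 for TYMS, and DW71374 from -0.16 to 0.02.

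In all 7 genes the group means ran, from low to high, OTX015, DW71177, RVX208, and then DW71374 and DMSO. DW71374 and DMSO arrays overlapped for MCM5, MCM6, TYMS and UNG. RVX208 arrays overlapped those of DW71374 for GINS4 and those of DMSO for TYMS. RVX208 and the 300 nM compounds were not tested against each other because their doses differ. Side by side against DMSO, MCM2 stood at -1.12 with OTX015, -0.69 with DW71177 and -0.37 with RVX208, and TYMS at -0.62, -0.27 and -0.08 in that order of compounds. These differences share the DMSO arrays.

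The compounds at 300 nM form 3 pairs, each compared directly and adjusted over all genes of the pair. All 7 members were lower with OTX015 than with DW71374, where 14% of all genes were. Their differences ran from -1.10 ± 0.051 for UNG to -0.33 ± 0.053 for GINS4 (limma adjusted p = 4.9e-09 and 0.00033). DW71177 was lower than DW71374 in 6 of the 7, where 9.51% of all genes were, led by CDC6 at -0.70 ± 0.073 (limma adjusted p = 1.2e-05). GINS4 missed that threshold at -0.15 ± 0.053 (95% interval -0.27 to -0.04, limma adjusted p = 0.062). With the mean of both its features GINS4 differed by 0.03, without a call.

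DW71177 and OTX015 differed in 6 of the 7 genes, all higher with DW71177, where 1.07% of all genes were higher. UNG showed the widest gap, with 145% of the OTX015 level (0.54 ± 0.051, 95% interval 0.43 to 0.65, limma adjusted p = 0.0003), and was the 14783rd of 14812 genes in rising order. MCM2 differed by 0.43 ± 0.065 and MCM5 by 0.36 ± 0.051 (limma adjusted p = 0.008 and 0.0076). MCM6 differed by 0.32 ± 0.047 and TYMS by 0.35 ± 0.053 (limma adjusted p = 0.008 each). CDC6 differed by 0.38 ± 0.073 (limma adjusted p = 0.027), and its call was lost without DW71177 replicate 2 or 3 or OTX015 replicate 1 or 3, at limma adjusted p = 0.08 to 0.091. GINS4 differed by 0.18 ± 0.053 (95% interval 0.06 to 0.29, limma adjusted p = 0.14). All DW71177 arrays lay above all OTX015 arrays in each member, as in 10.5% of all genes. From the 6 arrays alone, with fewer degrees of freedom, 0 of the 7 and 1 gene in all were called.

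**Figure D3:**
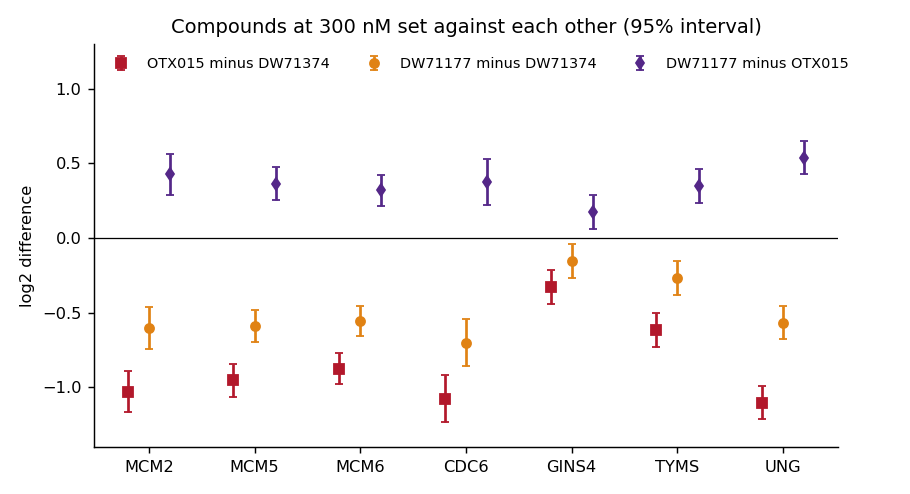
Log2 difference (y axis) between compounds at 300 nM for each gene (x axis), with 95% confidence intervals, n = 3 arrays per group. With the brightest feature of each gene, OTX015 and DW71177 lie below DW71374 in every gene. DW71177 lies above OTX015 by 0.18 for GINS4 to 0.54 for UNG.

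The other subunits of the helicase were lower as well with OTX015 and DW71177. All 11 subunits of the CMG helicase were measured, the members MCM2, MCM5, MCM6 and GINS4 among them. Of the 11, 11 fell with OTX015, 11 with DW71177, 7 with RVX208 and 0 with DW71374 in limma. Of all genes 14.5% fell with OTX015, 9.88% with DW71177 and 3.11% with RVX208. The ring subunits MCM3, MCM4 and MCM7 fell by 0.79, 0.65 and 0.82 on the log2 scale with OTX015, and by 0.48, 0.44 and 0.59 with DW71177. With RVX208, MCM3 and MCM7 fell by 0.23 and 0.34, and MCM4 differed by -0.20 (limma adjusted p = 0.054). The GINS subunits were less alike than the ring subunits. GINS1 fell by 1.28 ± 0.092 with OTX015, GINS2 by 1.05 ± 0.088, GINS3 by 0.63 ± 0.054 and GINS4 by 0.41 ± 0.053, and the intervals of GINS1 and GINS4 were far apart. CDC45, which joins the ring as GINS does, fell by 0.87 with OTX015 and by 0.59 with DW71177. With RVX208, CDC45 differed by -0.17 (limma adjusted p = 0.2) and GINS2 by -0.13 (limma adjusted p = 0.45).

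**Figure D4:**
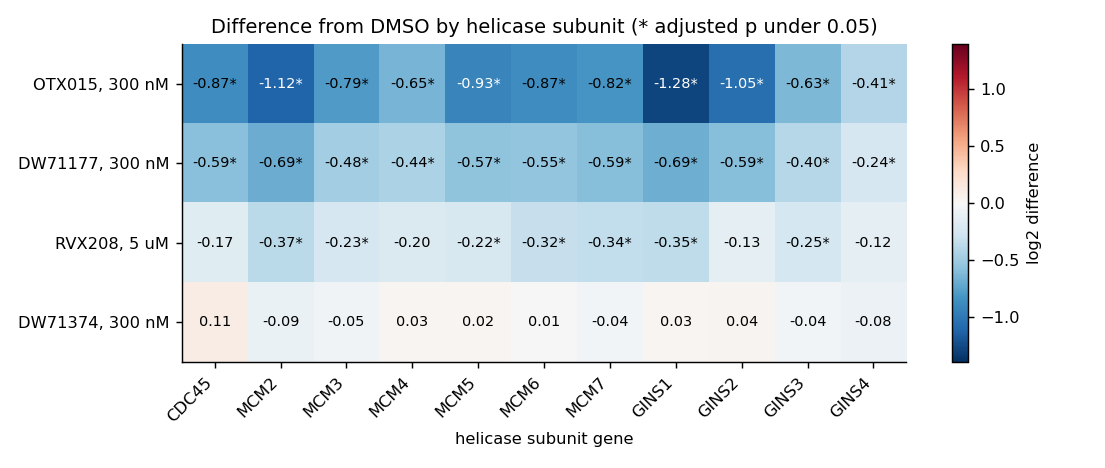
Log2 difference from DMSO (colour and printed value) of the 11 CMG helicase subunit genes (columns) under each compound (rows), with an asterisk for an adjusted p under 0.05 in limma. OTX015 values run from -1.28 for GINS1 to -0.41 for GINS4, and 0 subunits pass the test with DW71374.

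The wider pathway was read through lists of related genes, members left out of the counts. Beside the shares of all genes that fell, given above, 11.2% of all genes rose with OTX015, 9.95% with DW71177 and 3.41% with RVX208. Of 15 origin licensing genes listed 8 were measured, 4 of them members, and the other 4 all fell with OTX015 and with DW71177 (medians -0.81 and -0.53) and 2 with RVX208. CDT1, the loading partner of CDC6, fell by 0.85 with OTX015 and by 0.57 with DW71177. Of 14 helicase activation genes listed 13 were measured, and of the 12 besides GINS4 11 fell with OTX015, 9 with DW71177 and 4 with RVX208 (medians -0.70, -0.43 and -0.15). TOPBP1, a scaffold of origin firing, fell under OTX015 by 0.70, under DW71177 by 0.44 and under RVX208 by 0.28. The kinase gene CDC7, which phosphorylates the ring, fell by 0.27 with OTX015 and differed by -0.01 with DW71177, and DONSON differed by -0.15 with OTX015 without passing the test.

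Of 28 replication fork genes listed only 6 were measured, and the polymerase, primase, RFC, RPA, LIG1 and CHAF1 genes were not analysed here. All 6 fell with OTX015, 3 with DW71177 and 1 with RVX208 (medians -0.49, -0.22 and -0.07). TIPIN, a fork protection factor, fell by 1.06 under OTX015, 0.68 under DW71177 and 0.40 under RVX208. The flap nuclease gene FEN1 fell by 0.83 and the nuclease-helicase gene DNA2 by 0.65 with OTX015. PCNA, the sliding clamp, fell less, by 0.33 with OTX015, and differed by -0.15 with DW71177 (limma adjusted p = 0.062). CLSPN and TIMELESS fell by 0.31 and 0.23 with OTX015 and each differed by -0.01 with DW71177.

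Genes of thymidylate and deoxynucleotide supply were mixed. Of 20 listed 13 were measured, and of the 12 besides TYMS 8 fell and 1 rose with OTX015, 4 fell with DW71177 and 3 fell with RVX208 (medians -0.23, -0.15 and -0.08). DTYMK, which phosphorylates the dTMP made by TYMS, fell by 0.94 under OTX015, 0.61 under DW71177 and 0.34 under RVX208. DCTD, which makes dUMP from dCMP, fell by 0.57, 0.37 and 0.27 in that order of compounds. The ribonucleotide reductase large subunit gene RRM1 fell by 0.75 with OTX015, whereas its small subunit gene RRM2 differed by -0.01 ± 0.056 (limma adjusted p = 0.92). RRM2 read 8.02, 8.06 and 8.09 with OTX015, against 8.09, 8.03 and 8.09 in DMSO, and 4 of its 15 arrays held the same deposited value of 8.09. DCK, the salvage kinase of deoxycytidine, fell by 0.41 with OTX015 (limma adjusted p = 7.2e-05) and differed by -0.14 with DW71177. RRM2B, the stress-responsive small subunit, rose by 0.29 with OTX015 (limma adjusted p = 0.019). DUT, which removes dUTP, was dim, at 4.55 with OTX015 and 4.52 in DMSO, and differed by 0.03 ± 0.13.

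In uracil and base excision repair, where 14 of 16 listed genes were measured, UNG had the lowest difference with OTX015. Of the 13 others 4 fell with OTX015, 2 with DW71177 and 1 with RVX208 (medians -0.08, -0.03 and 0.01). APEX1, the endonuclease that cuts the site left by UNG, fell by 0.67 under OTX015, 0.50 under DW71177 and 0.23 under RVX208. NTHL1 fell by 0.50 with OTX015, TDG by 0.23 and PARP1 by 0.19. SMUG1, another uracil glycosylase, differed by 0.12 ± 0.10 (limma adjusted p = 0.51). The glycosylase genes NEIL3 and OGG1, which act on oxidised bases, stood at 0.03 and 0.01 and did not pass the test either.

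Regulators of S-phase entry mostly fell with OTX015 and DW71177. Of 17 genes of E2F and cell cycle entry listed 14 were measured, and 11 fell and 1 rose with OTX015, 8 fell and 1 rose with DW71177, and 2 fell and 1 rose with RVX208 (medians -0.55, -0.39 and -0.14). CDC25A, the phosphatase that activates CDK2, fell by 1.27 under OTX015, 1.16 under DW71177 and 0.51 under RVX208. E2F8 and the pocket protein gene RBL1 fell by 0.74 and 0.87 with OTX015. RB1, whose product restrains E2F, was the gene that rose, at 0.70 ± 0.052 under OTX015, 0.72 ± 0.052 under DW71177 and 0.47 ± 0.052 under RVX208 (limma adjusted p = 2.9e-07, 5.6e-07 and 0.00014). RB1 read 9.29, 9.35 and 9.28 with OTX015, against 8.56, 8.65 and 8.58 in DMSO. TFDP2 and RBL2 differed by 0.09 and -0.11 with OTX015 without passing the test. MYC, which BET inhibitors lower, fell by 1.42 under OTX015, 1.16 under DW71177 and 0.32 under RVX208.

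Genes of G2 and mitosis fell as well. Of 20 listed 17 were measured, and 17 fell with OTX015, 16 with DW71177 and 6 with RVX208 (medians -0.51, -0.36 and -0.16). BUB1B fell by 0.86, CCNA2 by 0.71, TOP2A by 0.64 and BUB1 by 0.50 with OTX015, and NUSAP1 and CDC20 by 0.25 and 0.27. The part that a shift in cell cycle phase takes in the members' falls was not tested. Between DW71177 and OTX015, 0 of the 17 mitotic genes were called, a count near the share of 1.26% called among all genes. The mitotic genes were all higher with DW71177, as the members were, by 0.02 to 0.25 (median 0.16). Of the members 6 of 7 were called (median 0.36), and whether the sets differ was not tested. With DW71374, 0 genes of the 7 lists were called.

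**Figure D5:**
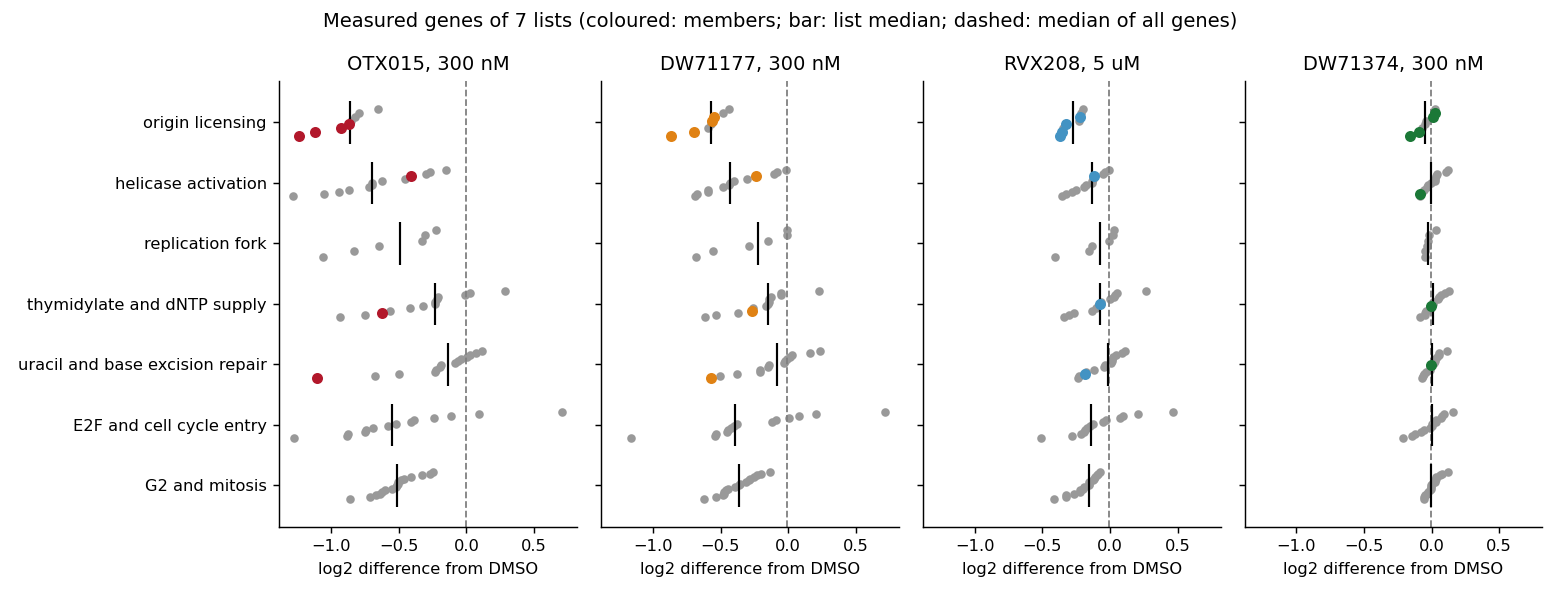
Log2 difference from DMSO (x axis) of each measured gene of 7 lists (rows) under the 4 compounds (panels). Coloured points are the 7 members, grey points other genes, black bars list medians and the dashed line the median of all genes. With OTX015 the medians run from -0.86 for origin licensing to -0.13 for uracil and base excision repair, and UNG at -1.11 is the lowest of its list.

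The members varied together across the arrays. Over the 15 arrays the 21 pairs of members had Pearson correlations of 0.937 to 0.987, the lowest between GINS4 and TYMS and the highest between TYMS and UNG. These correlations describe 5 groups of 3 arrays and mostly follow the group means. Of 1935 other genes whose group means spanned at least 0.5, those closest to the mean of the 7 were MCM3 (r = 0.995), CDK4 (0.993), VAMP8 (0.992), DCTPP1 (0.989), DNPH1 (0.989) and ENOPH1 (0.988). DCTPP1 and DNPH1 are nucleotide pool enzymes, which hydrolyse modified dCTP and hydroxymethyl-dUMP. DNPH1 read 6.90, 6.83 and 6.81 with OTX015, against 8.17, 8.09 and 8.26 in DMSO, a difference of -1.33 ± 0.061 (limma adjusted p = 4.4e-09). For single members, the closest gene was MCM3 for MCM2 (0.991), E2F8 for MCM5 (0.992), TMC8 for MCM6 (0.993) and YARS1 for CDC6 (0.985). It was RFWD3 for GINS4 (0.972), WDR76 for TYMS (0.988) and CDK4 for UNG (0.990).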

How the data were processed

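Total RNA of 15 MV4-11 samples was read on Affymetrix human whole-transcript arrays, per the labels' protocols. The authors deposited log2 signals for 44629 features, a scale inferred from their range and from array medians of 3.72 to 3.79. For background correction, normalization and build, nothing is stated in the labels or headers. Features were named through the platform annotation: 15835 named 1 gene, 0 several, 28794 none, and all 15835 matched a RefSeq gene ID. The brightest feature per gene left 14812 genes, without a level filter. Groups came from sample titles.

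Limma 3.58.1 in R 4.3.3 fitted the 5 group means with lmFit and eBayes (10 residual degrees of freedom). P-values are two-sided with Benjamini-Hochberg adjustment per comparison, errors are standard errors of the fit, and intervals are 95%. The fit was tested on simulated data. Of 7 comparisons 4 were against DMSO and 3 between compounds at 300 nM. Members, lists and motifs were chosen with earlier results of these data known. Named genes of the pathway lists were the 4 of smallest and 2 of largest p with OTX015 against DMSO, members left out, plus all ring and GINS subunits. RRM2B, SMUG1 and DNPH1's array values were chosen after values were seen. The origin recognition complex and most DNA polymerase genes were not analysed here. Alternatives covered normalization, a filter on dim genes, features, variance models, array weights, arrays fitted, a replicate block and each array left out.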

Additional observations from a re-analysis of the deposited data

How the results depend on the processing

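Each of the 7 comparisons was refitted under 15 alternatives, and of the 105 refitted member values in each, 0 changed sign against a called value. With OTX015 and with DW71177 against DMSO, 104 of 105 kept their side of the threshold, the exception in both being GINS4 with the mean of its features, as also in OTX015 against DW71374 (-0.16). In DW71177 against DW71374 104 of 105 kept it, and GINS4 gained a call among genes with a mean of at least 5. With DW71374 against DMSO all 105 stayed without a call. With RVX208, 18 of 105 were lost, all for MCM5 or UNG, and 11 were lost between DW71177 and OTX015, where GINS4 gained a call among genes with a mean of at least 5 (limma adjusted p = 0.030), so that 7 of 7 were called.

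With RVX208 against DMSO the count of called genes, 966, was 1576 among genes with a mean of at least 5, 520 adjusted over all features, 1485 with trended and robust variances and 609 from the 6 arrays of both groups alone. Called members numbered 5, and 3 when adjusted over all features or from the 6 arrays. Leaving out 1 array gave 564 to 636 genes and 3 to 4 members. Between DW71177 and OTX015 the 186 called genes became 112 with array medians subtracted, 593 among genes with a mean of at least 5, 44 adjusted over all features, 497 with trended and robust variances, 118 with array weights, and 1 from the 6 arrays alone, where 0 members were called. Leaving out 1 array gave 71 to 139 genes and 5 to 6 members. The filter on dim genes and the adjustment over all features change the set that is tested, and the variances were estimated again from that set. What moved the counts was not tested.

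Same-numbered arrays of different groups did not deviate together (correlations -0.09 to 0.10 over 30 pairs, 0 above 0.1), so the numbers were not taken as pairs. Of 60 pairs with different numbers 2 were above 0.1, both between DW71177 and OTX015. These were DW71177 replicate 2 with OTX015 replicate 3 (0.14) and DW71177 replicate 3 with OTX015 replicate 2 (0.11). The replicate block changed the DW71177 and OTX015 count to 107 genes with 6 members still called, and the RVX208 count to 875 genes and 4 members, UNG being lost (limma adjusted p = 0.079).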

Other observations

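Of all named genes 42.5% held the same deposited value in at least 2 of the 15 arrays, and 0 of the 7 members did. Among related genes, MCM3, MCM4, MCM7, CDT1, CDC45, GINS1, GINS2 and GINS3 had no repeated value either. Several other related genes had one, among them RECQL4, CLSPN, RRM2, DUT, DCTD, NTHL1, BUB1B and NUSAP1. DCTD and BUB1B each held a value shared by 2 arrays, and NTHL1 and NUSAP1 a value shared by 3. CCNE1, a cyclin that drives S-phase entry, was picked out after its values were seen. It fell by 0.88 with OTX015 and by 0.44 with DW71177 and differed by -0.05 with RVX208 (limma adjusted p = 1.4e-06, 0.00095 and 0.79). The related cyclin gene CCNE2 fell by 0.24 with OTX015, and differed by 0.08 with DW71177 and 0.10 with RVX208 (limma adjusted p = 0.0055, 0.43 and 0.40). ARRDC4, IER3 and TBX3 ran most opposite to the mean of the 7 members over the 15 arrays (r = -0.996, -0.990 and -0.982), as a description of the same 5 groups.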
